A study of Drosophila melanogaster with 30 samples.

Results

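The difference in CrebB occupancy between paired and unpaired flies in the second time interval after conditioning (TI-2) was described by gene class rather than gene by gene. The comparison used 12 of the 30 samples, which give 6 of the 15 profiles, namely 3 paired and 3 unpaired replicates. Naïve flies (6 samples, 3 profiles) were used only to order the genes. Each profile compares a Dam-CrebB sample (genotype MB-Gal4>UAS-Dam-CrebB) with a Dam-only sample (genotype MB-Gal4>UAS-Dam), in which the bacterial methylase is expressed without a fusion partner. All flies were adults and carried the mb247-Gal4 driver, active in mushroom body (MB) lobe neurons, together with the temperature-sensitive Gal4 inhibitor Gal80ts. Paired flies received an odor together with sucrose, and unpaired flies received odor and sucrose at separate times. At TI-2 both groups were moved to 29°C, which releases the transgenes, from 24 h to 48 h after training. Naïve flies were not trained, and their labels give no interval. A sample was the DNA of 50 to 100 pooled heads, so the only cell type restriction is the driver, and differences between single flies or between MB lobes cannot be seen.

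CREB is a bZIP transcription factor that is switched on by cAMP and calcium signalling and is needed for long-term memory in flies and mammals. CrebB is its fly homolog. In Targeted DamID the Dam methylase fused to a DNA-binding protein marks adenines in GATC sites close to where that protein sits, and the Dam-only sample records how accessible each site is. The log2 ratio of both therefore describes occupancy over accessibility and not the amount of RNA. Kenyon cells, the intrinsic neurons of the MB, receive odor input and dopaminergic reinforcement, and cAMP produced by the adenylyl cyclase rutabaga is a classical part of their memory machinery.

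The value of a gene was the mean log2(Dam-CrebB/Dam-only) over the GATC fragments that overlap its body, weighted by fragment length, and the unpaired value was subtracted from the paired value of the same replicate number. These differences are called pair 1, pair 2 and pair 3. Of 17872 genes, 17463 had a value other than 0 in at least 1 of the 9 profiles and entered the classes. Genes were sorted into 35 families by symbol, into quintiles of the mean naïve signal and into 5 classes of gene length. A gene had a median of 8 fragments, and 48.9% of the genes overlapped another gene and shared fragments with it, which cannot be separated since the assay has no strand. Families of small RNAs, most of which lie on a single fragment, carry the value of their surroundings for this reason.

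Replicate 3 stood apart from replicates 1 and 2 in both groups, and its pair is therefore given separately throughout. Across the GATC fragments, Pearson's r between paired and unpaired replicate 3 was 0.37, against 0.86 for replicate 1 and 0.89 for replicate 2. The SD of the log2 ratio across fragments was 0.80 in paired replicate 3 and between 0.39 and 0.50 in the other 5 profiles. Across genes, the SD of the paired-minus-unpaired difference was 0.20 in pair 1, 0.16 in pair 2 and 0.63 in pair 3. Depth is unknown for all profiles, because the files hold no read counts. Of the 10 Kenyon cell markers, 7 had a mean naïve value above 0.2, among them ey (0.44), toy (0.69) and prt (0.57). The others were dnc (0.11), trio (0.17) and Fas2 (0.03). Over all genes, 0.2 lay within naïve quintile 4, which went from 0.10 to 0.38 with a median of 0.22, so many other genes exceed it. Of the 6 glial markers, 3 also lay above 0.2, with Gs2 at 0.82, moody at 0.47 and Eaat1 at 0.57, whereas repo, the defining glial transcription factor, was at -0.38. None of the 3 fat body markers and 1 of the 4 photoreceptor markers (norpA, 0.24) exceeded 0.2. The glial list had a median difference of 0.55 in pair 3 against 0.01 for the Kenyon cell list, with list medians of 0.37, 0.15 and 0.51 in paired and 0.10, 0.22 and -0.07 in unpaired replicates 1, 2 and 3. Its members were split in pair 3, with moody at 1.64, repo at 1.18, wrapper at 0.72, Gs2 at 0.39, Eaat1 at -0.01 and alrm at -0.10. The Kenyon cell markers went from -0.30 in toy to 1.14 in prt. The part of the glial list in the class values below was not tested.

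No single gene was called in this comparison. With adjustment after Benjamini and Hochberg, an adjusted p below 0.01 and a minimum change of 0.2, limma found 0 genes higher (0.0% of those tested) and 0 genes lower (0.0%) in paired flies. Before adjustment, limma had 50 higher and 49 lower of 17463 genes past the 0.05 level with a change of that size. With no minimum change it had 52 and 54, together a smaller share than 0.05 of the genes tested. The smallest adjusted p from limma was 0.894. All class values that follow are descriptions of medians and counts without a test. The genes of a class are not replicates of the condition.

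The first question was whether genes with strong CrebB signal in untrained flies differed from genes with weak signal. In pairs 1 and 2 they did not separate. Among the 3493 genes of the highest naïve quintile, the median signal was 0.55, 0.57 and 0.81 in paired replicates 1, 2 and 3. In unpaired replicates 1, 2 and 3 it was 0.49, 0.63 and 0.37, around a naïve median of 0.65. Paired replicate 3 was thus the highest and unpaired replicate 3 the lowest of the 6 profiles, while the other 4 profiles of both groups interleaved. The difference in this quintile had a median of 0.04 in pair 1, -0.06 in pair 2 and 0.38 in pair 3. The same 3 medians over all genes were 0.02, -0.05 and 0.09. They depended on the scale, with 0.0088, 0.0070 and -0.03 after each profile was centred on its median and -0.0047, 0.0037 and -0.06 after the profiles were quantile-normalized, so class medians are read against that of all genes.

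In the lowest naïve quintile (3492 genes, naïve median -0.30), the paired medians were -0.17, -0.24 and -0.22 and the unpaired medians were -0.22, -0.20 and -0.12 for replicates 1, 2 and 3. Here unpaired replicate 3 was the profile closest to 0, and the groups overlapped. The difference had a median of 0.03 in pair 1, -0.05 in pair 2 and -0.10 in pair 3. Across the 5 quintiles the medians of pair 1 stayed between 0.01 and 0.04 and those of pair 2 between -0.06 and -0.04. In pair 3 they increased at each step, from -0.10 over -0.00056, 0.04 and 0.22 to 0.38, and Spearman's rho between the naïve value and the difference was 0.31 across 17463 genes, against -0.01 in pair 1 and -0.02 in pair 2. These genes share profiles and neighbouring fragments, so the correlations are given as descriptions.

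**Figure D1:**
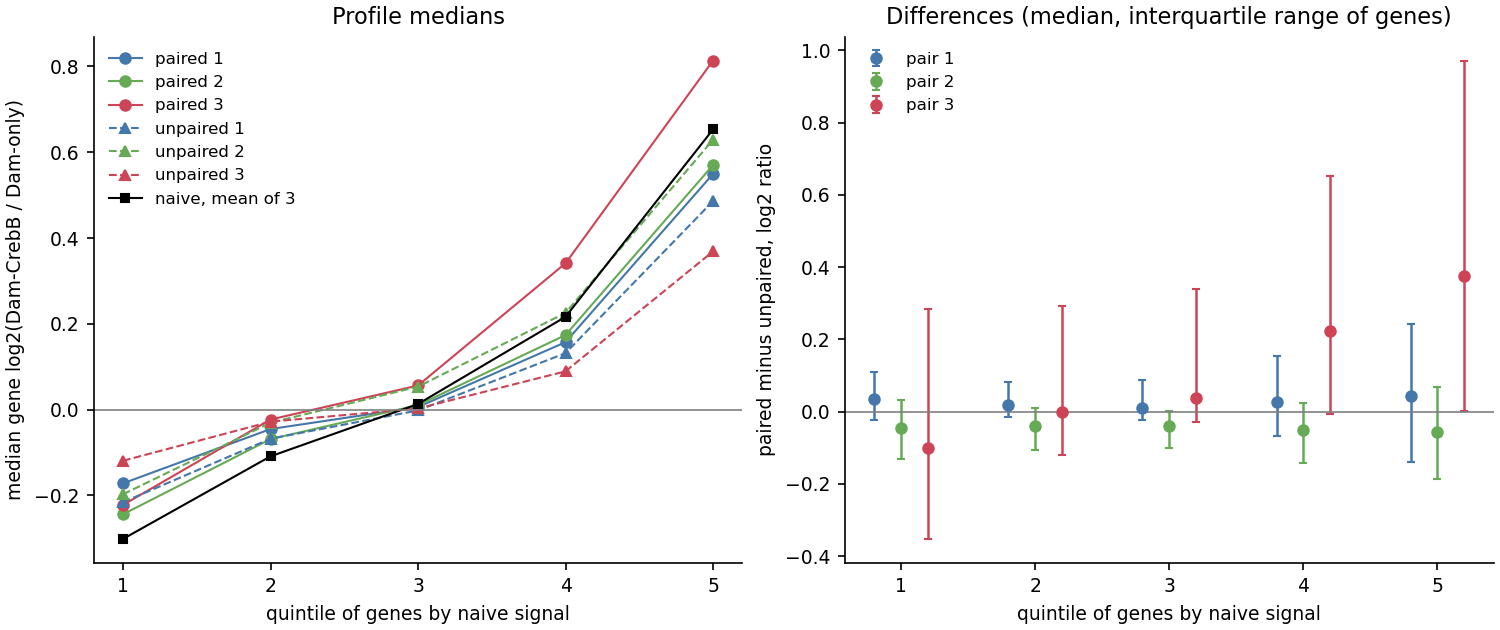
Genes in quintiles of the mean naïve signal. Left, median gene log2(Dam-CrebB/Dam-only) of each paired (circles) and unpaired (triangles) TI-2 profile and of the naïve mean (squares). Right, paired minus unpaired log2 ratio in pairs 1, 2 and 3, with points for the median and bars for the interquartile range over genes. Only pair 3 rises with the quintile, from -0.10 to 0.38, and its bars are the widest.

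Counts gave the same picture. In pair 3, 61.7% of the highest quintile and 29.2% of the lowest quintile had a difference above 0.2, against 41.2% of all genes. A difference below -0.2 was found in 14.8% of the highest and 39.3% of the lowest quintile, against 17.9% of all genes. For pairs 1 and 2, a gene above 0 in both was found in 15.1% of the highest and 16.8% of the lowest quintile, against 14.2% of all genes, and a gene below 0 in both in 20.8% and 17.4%, against 21.8%. The gradient of pair 3 was not seen after quantile normalization, which gives all profiles the same distribution. With it, the median of the highest quintile minus that of the lowest turned from 0.48 to -0.06, while centring left it at 0.48, and in the mean of pairs 1 and 2 it was -0.0020 as deposited and -0.02 after this step.

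The second classification was by the length of the gene body. Long genes in the fly are enriched for neuronal receptors, channels and adhesion molecules, whereas housekeeping genes are mostly short. The median number of fragments per gene was 3 in genes under 1 kb and 114 in genes over 30 kb. The interquartile range of the differences was smallest in the longest genes, at 0.06 in pair 1, 0.05 in pair 2 and 0.21 in pair 3. In pair 2 it fell at each step of length from 0.20, and in pair 1 it was 0.18 under 1 kb and from 1 to 3 kb. In pair 3 it was widest from 1 to 3 kb (0.79) and from 3 to 10 kb (0.66), against 0.49 under 1 kb.

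In the 689 genes over 30 kb, the median signal was 0.07, 0.14 and 0.18 in paired replicates 1, 2 and 3 and 0.10, 0.18 and 0.11 in the unpaired replicates. The groups overlapped, with paired replicate 1 as the lowest profile and with paired replicate 3 and unpaired replicate 2 both at 0.18. The difference had a median of -0.02 in pair 1, -0.03 in pair 2 and 0.06 in pair 3. Of these genes, 367 (53.3%) were below 0 in both pair 1 and pair 2 and 23 (3.34%) above 0 in both, against 21.8% and 14.2% of all genes. These shares moved with the centring of the profiles. After centring each profile on its median, 135 long genes (19.6%) were below and 86 (12.5%) above, against 15.1% and 21.7% of all genes. After quantile normalization 115 (16.7%) were below and 60 (8.71%) above, against 18.1% and 17.9% of all genes. The share above 0 was thus lower than that of all genes under each scaling, and the share below 0 was higher under the deposited and centred values. Relative to the all-gene median, the long genes lay at -0.04 in pair 1 and at 0.01 in pair 2.

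In pair 3 the genes of intermediate length had the highest differences. The medians were -0.0074 under 1 kb (5308 genes), 0.14 from 1 to 3 kb (6611 genes), 0.24 from 3 to 10 kb (3503 genes) and 0.16 from 10 to 30 kb (1352 genes). A difference above 0.2 was found in 53.2% of the genes from 3 to 10 kb and in 22.8% of those over 30 kb, against 41.2% of all genes. Quantile normalization turned the medians from 10 to 30 kb and over 30 kb to -0.10 and -0.15 and left that of the genes from 3 to 10 kb at 0.03, above the all-gene median of -0.06.

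**Figure D2:**
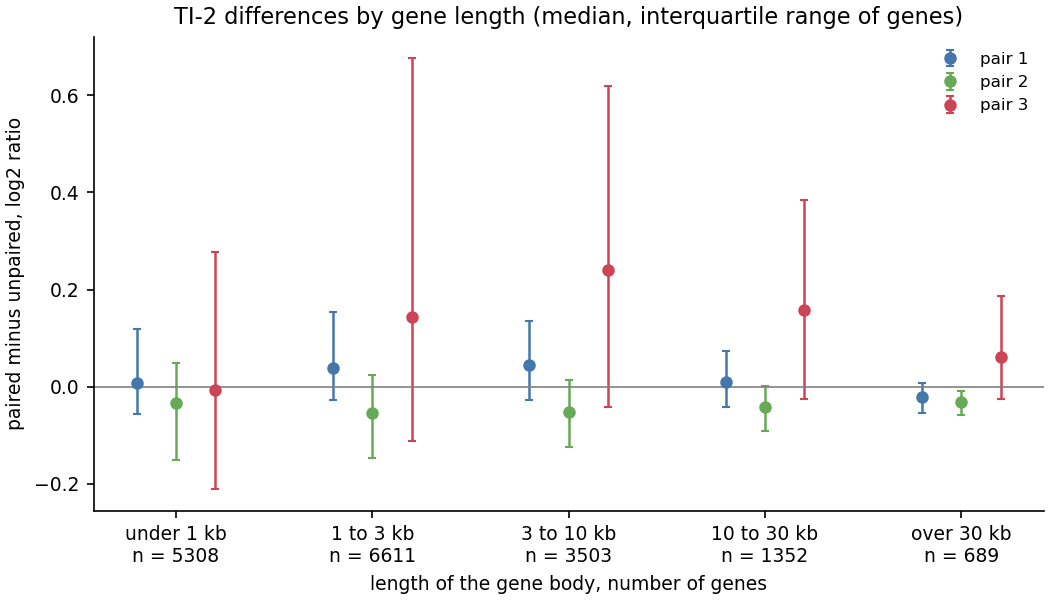
Paired minus unpaired log2 ratio in 5 classes of gene length for pairs 1, 2 and 3, with points for the median and bars for the interquartile range over genes. Pairs 1 and 2 lie on opposite sides of 0 except in genes over 30 kb, and the bars are shortest in that class. In pair 3 the bars are longest from 1 to 3 kb, where the interquartile range is 0.79.

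Naïve signal and gene length were then combined. In pair 3, the 1162 genes from 1 to 3 kb in the highest naïve quintile had the highest median difference of the 25 combinations, at 0.61, with a median signal of 1.03 in paired and 0.40 in unpaired replicate 3. The lowest was found for the 22 genes over 30 kb in the lowest quintile, at -0.25. Within every length class the highest quintile had a higher median than the lowest in pair 3, with 0.20 against -0.21 under 1 kb and 0.42 against 0.06 from 3 to 10 kb. In the mean of pairs 1 and 2 all 25 medians lay between -0.03 and 0.01.

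**Figure D3:**
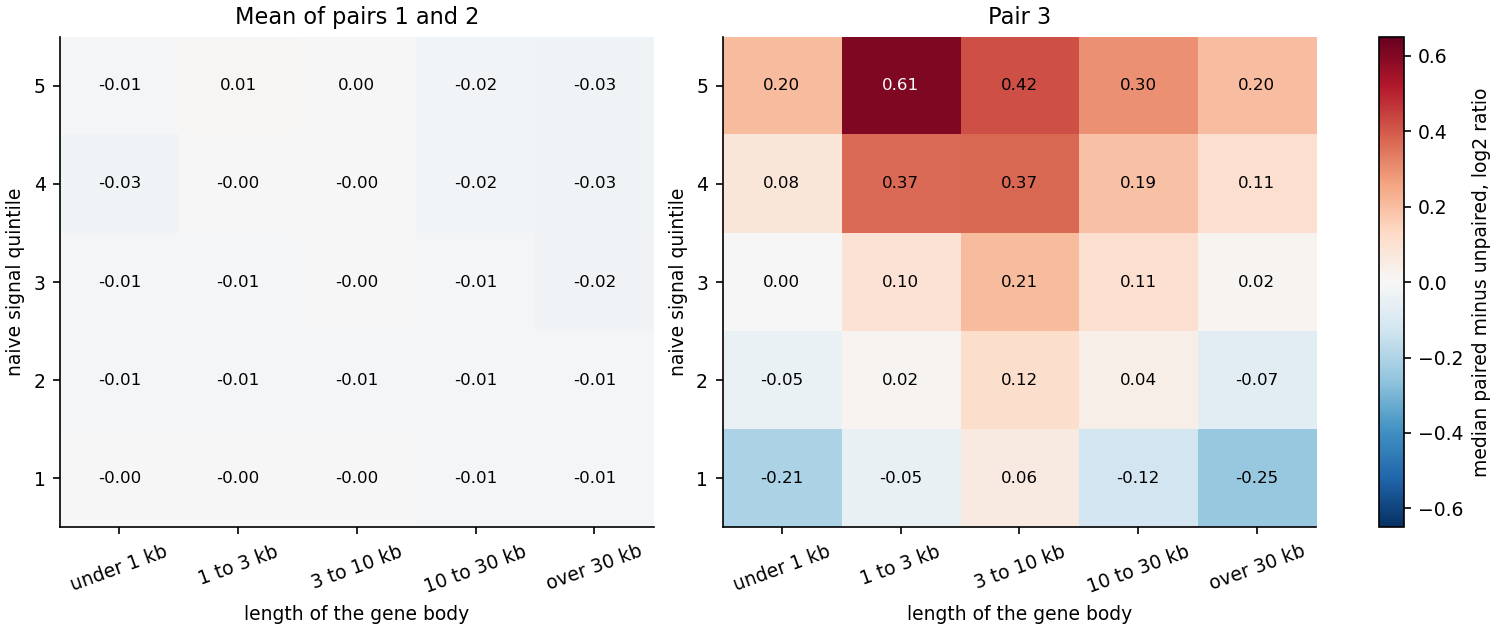
Median paired minus unpaired log2 ratio for each combination of naïve signal quintile and gene length class, for the mean of pairs 1 and 2 (left) and for pair 3 (right). The left panel stays between -0.03 and 0.01, and the right panel reaches 0.61 for genes from 1 to 3 kb in quintile 5.

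Among the gene families, the CCT chaperonin, cytosolic ribosomal proteins, translation initiation factors, aminoacyl-tRNA synthetases and oxidative phosphorylation had the 5 highest medians in pair 3, and most families pointed in opposite directions in pairs 1 and 2. Family medians lay between -0.07 and 0.20 in pair 1, between -0.14 and 0.01 in pair 2 and between -0.22 and 0.64 in pair 3. In 26 of the 35 families, pairs 1 and 2 lay on opposite sides of the respective all-gene median, 4 families lay above it in both and 5 below it in both. Across the 35 families, which differ in size and share genes and profiles, Pearson's r between the medians of pair 1 and pair 2 was -0.66. Across all genes it was -0.35.

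**Figure D4:**
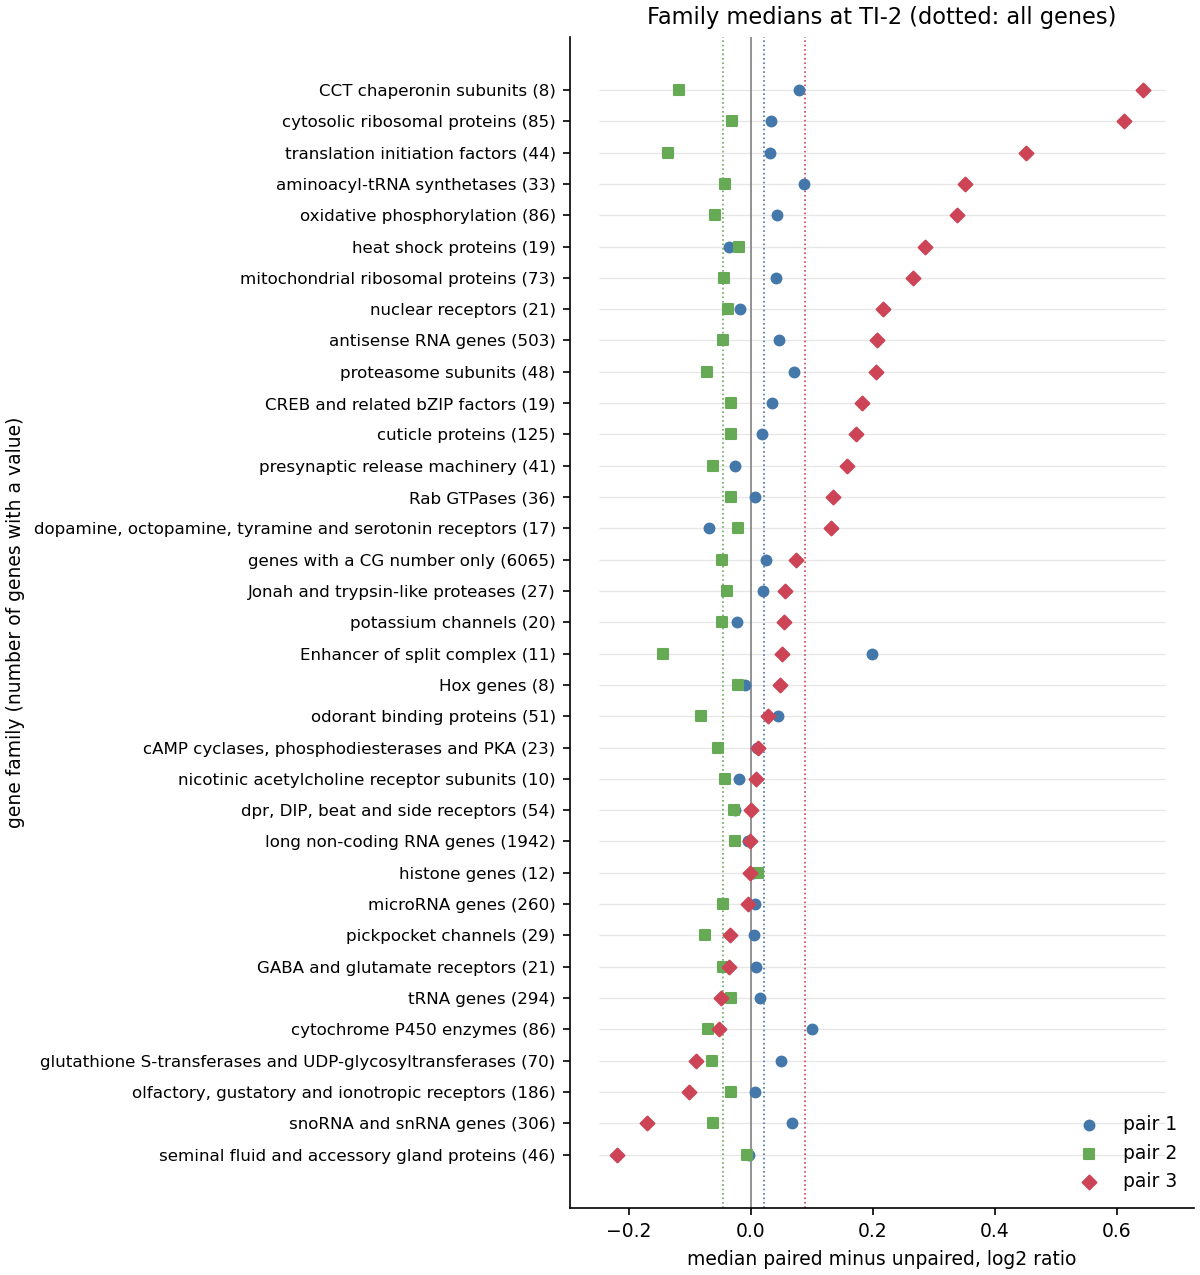
Median paired minus unpaired log2 ratio in each of 35 gene families (number of genes in brackets) for pairs 1, 2 and 3. Families are ordered by pair 3, and dotted lines mark the all-gene median of each pair. The CCT chaperonin (0.64) and the cytosolic ribosomal proteins (0.61) head pair 3, and seminal fluid proteins are last (-0.22).

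The 8 subunits of the CCT chaperonin, which folds actin and tubulin, moved together in pair 3. Their median signal was 0.03, -0.02 and 0.45 in paired replicates 1, 2 and 3 and -0.06, 0.12 and -0.19 in unpaired replicates 1, 2 and 3. The 2 samples of replicate 3 were thus the highest and the lowest, and unpaired replicate 2 lay above paired replicates 1 and 2. All 8 subunits had a difference above 0.2 in pair 3, against 41.2% of all genes, from 0.43 in CCT3 to 1.31 in CCT4, and the family median was 0.64. In pair 1 all 8 subunits were above 0 (median 0.08), and in pair 2 7 of them were not (median -0.12). Over all genes, 60.2% were above 0 in pair 1 and 32.1% in pair 2. After quantile normalization the pair 3 median was 0.39.

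The single subunits differed in which profiles stood apart. CCT4 had values of -0.28, -0.51 and 0.63 in paired and -0.29, -0.43 and -0.69 in unpaired replicates 1, 2 and 3. Paired replicate 3 was the only one of these 6 profiles above 0. CCT7, on chromosome 3R (8801564 to 8806234, release 6), had values of 0.24, 0.62 and 1.07 in paired and 0.23, 0.82 and 0.22 in unpaired flies, with unpaired replicate 2 above paired replicates 1 and 2. CCT2, on the X chromosome (9089513 to 9092826), had values of 0.09, 0.02 and 0.47 in paired and -0.01, 0.03 and -0.18 in unpaired flies. It had the highest mean of pairs 1 and 2 in the family (0.04), and limma gave an adjusted p of 0.89 for both genes.

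The 85 cytosolic ribosomal proteins, which build the translating ribosome, had a median signal of -0.0017, 0.03 and 0.46 in paired and -0.0054, 0.07 and 0.04 in unpaired replicates 1, 2 and 3. Only paired replicate 3 stood apart. The median difference was 0.03 in pair 1, -0.03 in pair 2 and 0.61 in pair 3. There 53 genes (62.4%) lay above 0.2 and 12 (14.1%) below -0.2, against 41.2% and 17.9% of all genes. In pairs 1 and 2, 15 genes (17.6%) were above 0 in both and 15 (17.6%) below 0 in both, against 14.2% and 21.8% of all genes. The family was not uniform in pair 3, since its differences went from -1.01 to 2.71. Genes of the same naïve quintile and length class had a typical median of 0.10, and 56 of the 85 genes exceeded that of their own combination. After quantile normalization the pair 3 median was 0.05, which is 0.11 above that of all genes.

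RpL4 (chromosome 3R, 27922821 to 27924888), a protein of the large subunit, had the highest mean of pairs 1 and 2 among the ribosomal proteins with at least 5 fragments. Its values were 0.61, 0.29 and 2.05 in paired and 0.39, 0.02 and 0.38 in unpaired flies, so the paired value was higher in each pair, although paired replicate 2 lay below unpaired replicates 1 and 3. RpS14a (X chromosome, 7933742 to 7934677), a protein of the small subunit, had values of -0.21, 0.05 and 1.13 in paired and 0.18, -0.0036 and -0.51 in unpaired flies. It was lowest in the mean of pairs 1 and 2 (-0.17) among those with at least 5 fragments and had 1.64 in pair 3. For both genes the adjusted p from limma was 0.89.

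The other families of this kind had positive medians in pair 3 as well. The medians were 0.45 for 44 translation initiation factors, 0.35 for 33 aminoacyl-tRNA synthetases (which charge tRNAs with amino acids), 0.34 for 86 subunits and factors of oxidative phosphorylation, 0.27 for 73 mitochondrial ribosomal proteins and 0.21 for 48 proteasome subunits. After quantile normalization they were 0.04, 0.11, 0.07, 0.12 and 0.02, each still above the all-gene median. In pairs 1 and 2, the aminoacyl-tRNA synthetases had 8 genes above 0 in both and 2 below (24.2% and 6.06%, against 14.2% and 21.8% of all genes). After centring they had 11 and 1 (33.3% and 3.03%, against 21.7% and 15.1% of all genes). After quantile normalization they had 7 and 1 (21.2% and 3.03%, against 17.9% and 18.1% of all genes). The initiation factors had 1 above and 8 below (2.27% and 18.2%). They had 5 and 6 after centring (11.4% and 13.6%), and 2 and 6 after quantile normalization (4.55% and 13.6%). Their median was 0.03 in pair 1 and -0.14 in pair 2.

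Among the proteasome subunits, Rpn12 (chromosome 3L, 16583028 to 16584022), a lid subunit of the regulatory particle, was the member with the highest mean of pairs 1 and 2. Its values were -0.10, -0.33 and 0.12 in paired and -0.39, -0.52 and -0.11 in unpaired replicates 1, 2 and 3. The difference was similar in the 3 pairs, at 0.29, 0.19 and 0.23 (mean 0.24, SD 0.05, n = 3), although the groups overlapped. Since pairs 1 and 2 served to pick Rpn12, this SD is no measure of how well the difference repeats. The adjusted p from limma was 0.89. SdhC (chromosome 3R, 11208887 to 11209849), a membrane anchor of succinate dehydrogenase, had the highest mean of pairs 1 and 2 in oxidative phosphorylation. It changed sign between pairs, with 0.56 in pair 1, 0.14 in pair 2 and -1.37 in pair 3. Prosbeta2R2 (chromosome 3R, 5217751 to 5219528), a relative of a catalytic core subunit, was the lowest of the proteasome genes, with differences of -0.09 in pair 1 and -0.21 in pair 2. In replicate 3 it had 0.48 in paired and -0.72 in unpaired flies.

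The 36 Rab GTPases, which direct vesicles between membranes, had medians of 0.0059, -0.03 and 0.13 in pairs 1, 2 and 3, and quantile normalization turned the last to -0.06. Rab4 (chromosome 2R, 17573462 to 17574979), a Rab protein of recycling endosomes, had values of 0.55, 0.17 and -0.51 in paired and -0.06, 0.01 and 0.28 in unpaired replicates 1, 2 and 3. Paired replicate 3 lay below all unpaired replicates, while paired replicate 1 lay above them. RabX6 (chromosome 3L, 690517 to 691951) had differences of -0.02, -0.38 and 0.58.

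The neuronal families consist mostly of long genes, and several of them lay below the all-gene median in pair 1. The aminergic receptors had the lowest median of the 35 families there, at -0.07. The 54 dpr, DIP, beat and side genes encode immunoglobulin-type surface receptors that match synaptic partners, and their bodies have a median length of 36155 bp. Their median signal was 0.0025, 0.10 and 0.11 in paired and 0.03, 0.13 and 0.11 in unpaired replicates 1, 2 and 3, so the profiles of both groups overlapped and replicate 1 was the lowest in each. The difference had a median of -0.03 in pair 1, -0.03 in pair 2 (0.03 after centring) and -0.00054 in pair 3 (-0.17 after quantile normalization). Of the 54 genes, 34 were below 0 in both pairs 1 and 2 and 2 above (63.0% and 3.70%), against 21.8% and 14.2% of all genes. After centring each profile 14 (25.9%) were below and 4 (7.41%) above, and after quantile normalization 15 (27.8%) and 3 (5.56%), with the all-gene shares of these scalings as given for the long genes.

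The 17 receptors for dopamine, octopamine, tyramine and serotonin, which carry reinforcement and state signals to the MB, had a median signal of 0.07, 0.19 and 0.33 in paired and 0.13, 0.25 and 0.18 in unpaired flies. The groups overlapped, and the paired value was below the unpaired value in replicates 1 and 2 and above it in replicate 3. In pairs 1 and 2, 11 of the 17 genes (64.7%) were below 0 in both and 0 above 0 in both, against 21.8% and 14.2% of all genes. The receptor genes have a median length of 30277 bp, and in all genes over 30 kb these shares were 53.3% and 3.34%. After centring 5 (29.4%) were below and 0 above, against 15.1% and 21.7% of all genes. After quantile normalization 3 (17.6%) were below and 0 above, against 18.1% and 17.9% of all genes. The median was -0.07 in pair 1, -0.02 in pair 2 (0.03 after centring) and 0.13 in pair 3, and quantile normalization turned the last to -0.19. In pair 3, 6 genes (35.3%) lay above 0.2 and 0 below -0.2, against 41.2% and 17.9% of all genes.

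Among these receptors, Dop1R1, the D1-like receptor needed in the MB for associative learning, had values of 0.14, 0.27 and 0.43 in paired and 0.19, 0.33 and 0.21 in unpaired flies. Its differences were -0.05, -0.06 and 0.22. Oamb, an octopamine receptor, had differences of -0.11, -0.03 and 0.27, and Dop1R2, a second D1-like receptor, had differences of -0.09, -0.03 and 0.36. These 3 genes were named after their values had been seen. DopEcR (chromosome 3L, 4367649 to 4380387), which responds to dopamine and ecdysone, had the lowest mean of pairs 1 and 2 in the family (-0.09), with 0.10, 0.32 and 0.32 in paired and 0.24, 0.37 and 0.21 in unpaired flies. In none of the 4 genes did the paired and unpaired values separate.

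The presynaptic release machinery (41 genes) had a median signal of 0.02, 0.09 and 0.20 in paired and 0.05, 0.17 and 0.10 in unpaired flies. The groups overlapped, and again paired replicate 3 was the highest and paired replicate 1 the lowest. Of its genes, 22 (53.7%) were below 0 in pairs 1 and 2 and 3 (7.32%) above, against 21.8% and 14.2% of all genes. After centring 13 (31.7%) were below and 4 (9.76%) above, against 15.1% and 21.7%, and after quantile normalization 15 (36.6%) and 3 (7.32%), against 18.1% and 17.9%. The pair 3 median was 0.16, which quantile normalization turned to -0.13. AP-2mu (chromosome 3R, 22462455 to 22464603), a subunit of the adaptor complex of endocytosis, had the highest mean of pairs 1 and 2, and its pair 3 difference of 1.88 was the highest of the family. AP-2sigma (chromosome 3R, 21269209 to 21270075), another subunit of the same complex, had the lowest mean of pairs 1 and 2. Their differences were 0.41, -0.09 and 1.88 for AP-2mu and -0.45, 0.02 and 0.66 for AP-2sigma.

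The cAMP and protein kinase A (PKA) cascade acts upstream of CREB. The 23 genes grouped here encode adenylyl cyclases, cyclic nucleotide phosphodiesterases, and subunits and anchors of PKA. Their median difference was 0.01 in pair 1, -0.05 in pair 2 and 0.01 in pair 3, and quantile normalization turned the last to -0.18. The adenylyl cyclase gene rut had 0.15, 0.14 and 0.44 in paired and 0.18, 0.17 and 0.08 in unpaired flies. The phosphodiesterase gene dnc had 0.06, 0.10 and 0.06 in paired and 0.07, 0.12 and 0.07 in unpaired flies, so that its pairs differed by at most 0.02. Pde8 (chromosome 2R, 23657567 to 23680844), another phosphodiesterase, was highest in the mean of pairs 1 and 2, with differences of 0.06, 0.09 and 1.14. Pka-R1 (chromosome 3L, 20816118 to 20836048), a regulatory subunit of PKA, was lowest, with -0.18, -0.07 and 0.50.

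Potassium channels (20 genes) had medians of -0.02, -0.05 and 0.05 in pairs 1, 2 and 3, the last of which quantile normalization turned to -0.18. In pairs 1 and 2, 9 genes (45.0%) were below 0 in both and 0 above, against 21.8% and 14.2% of all genes. After centring 2 (10%) were below and 3 (15%) above, against 15.1% and 21.7%. After quantile normalization 3 (15%) were below and 1 (5%) above, against 18.1% and 17.9%. The sand gene (chromosome 2R, 8091696 to 8096948), which encodes a leak channel of sleep-regulating neurons, had 0.39, 0.44 and 1.13 in paired and 0.34, 0.62 and 0.0027 in unpaired flies, and its pair 3 difference of 1.12 was the highest of the family. Nicotinic acetylcholine receptor subunits (10 genes), which receive the cholinergic odor input, had medians of -0.02, -0.04 and 0.0087 (-0.17 in pair 3 after quantile normalization). Of these genes 6 (60%) were below 0 in pairs 1 and 2 and 1 (10%) above. After centring and after quantile normalization 3 (30%) were below and 2 (20%) above. The all-gene shares of each scaling are those given for the potassium channels. In nAChRalpha2 (chromosome 3R, 24485428 to 24491147) the values were 0.50, 0.75 and 1.51 in paired and 0.60, 0.82 and 1.03 in unpaired flies. In nAChRbeta3 (chromosome 2L, 545129 to 547096) the differences were 0.08, 0.05 and 0.74, and those of pairs 2 and 3 were the highest of the family.

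Among the dpr genes, dpr18 (X chromosome, 16063738 to 16070304) was the member with the lowest mean of pairs 1 and 2. Its values were -0.37, -0.15 and -0.18 in paired and -0.18, 0.03 and -0.0031 in unpaired replicates 1, 2 and 3. The difference was nearly equal in the 3 pairs, at -0.19, -0.18 and -0.18 (SD 0.01, n = 3), while the adjusted p from limma was 0.89. This difference was smaller than the range of the 3 replicates in either group, and the groups overlapped slightly. Pairs 1 and 2 served to pick dpr18, so the SD is no measure of how well the difference repeats.

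The 19 genes grouped as CREB and related bZIP factors had the highest naïve median of the families described, at 0.44. They include nej, which encodes a CREB coactivator and not a bZIP factor. Their median signal was 0.21, 0.34 and 0.28 in paired and 0.25, 0.36 and 0.15 in unpaired flies, so the groups overlapped. The 6 profiles lay below the median of the naïve mean, but the naïve replicates themselves had medians of 0.30, 0.51 and 0.54. Naïve replicate 1 thus lay below paired replicate 2 and unpaired replicate 2. The differences had medians of 0.03, -0.03 and 0.18, and quantile normalization turned the last to -0.19. CrebB (X chromosome, 18366357 to 18377864) had differences of -0.37, 0.09 and 0.70. The transgene carries CrebB coding sequence, and its contribution to the reads of this gene was not tested. The 11 genes of the Enhancer of split complex, Notch target genes and neighbours that lie together on chromosome 3R, had the highest median of all families in pair 1 (0.20) and the lowest in pair 2 (-0.14), and 0.05 in pair 3. Of these genes 9 (81.8%) were above 0 in pair 1 and 1 (9.09%) in pair 2, against 60.2% and 32.1% of all genes. The 21 nuclear receptors, ligand-activated factors that include the ecdysone receptor, had medians of -0.02, -0.04 and 0.22, and quantile normalization turned the last to -0.0067. In pair 3, 12 of them (57.1%) lay above 0.2 and 0 below -0.2, against 41.2% and 17.9% of all genes. Genes of the same naïve quintile and length class had a typical pair 3 median of 0.20, close to that of the family. Of the 21 receptors, 12 exceeded the median of their own combination. The 8 Hox genes, which set segment identity, had -0.0094, -0.02 and 0.05, with -0.03 in pair 3 after quantile normalization. The 19 heat shock genes had -0.04, -0.02 and 0.29, the last of which was 0.0036 after quantile normalization. The 21 GABA and glutamate receptor genes had 0.0086, -0.05 and -0.04.

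Several families expressed mainly outside the brain had low medians in pair 3. The 186 olfactory, gustatory and ionotropic receptors, which detect odors and tastes in sensory organs, had a median signal of -0.07, -0.09 and -0.13 in paired and -0.10, -0.06 and -0.01 in unpaired replicates 1, 2 and 3. All 6 profiles were below 0, and those of replicate 3 lay at both ends. The differences had medians of 0.0063, -0.03 and -0.10. In pair 3, 60 genes (32.3%) lay below -0.2 and 23 (12.4%) above 0.2, against 17.9% and 41.2% of all genes. Gr32a (chromosome 2L, 11114014 to 11115823), a bitter taste receptor, had the lowest mean of pairs 1 and 2 in the family (-0.43), with 0.40, 1.34 and 1.11 in paired and 1.12, 1.49 and 1.12 in unpaired flies. Paired replicate 1 alone lay below the rest.

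The 46 seminal fluid and accessory gland proteins had medians of -0.0033, -0.0072 and -0.22, and only 6 of them had at least 5 fragments. In pair 3, 23 genes (50.0%) lay below -0.2 and 5 (10.9%) above 0.2, against 17.9% and 41.2% of all genes. The 86 cytochrome P450 enzymes, which detoxify and make steroid hormones, had medians of 0.10, -0.07 and -0.05. The 70 glutathione S-transferases and UDP-glycosyltransferases, also of detoxification, had 0.05, -0.06 and -0.09. For these 4 families the pair 3 medians stayed below that of all genes after quantile normalization, at -0.16, -0.21, -0.12 and -0.17. The 125 cuticle proteins with a value had a pair 3 median of 0.17, with 59 genes (47.2%) above 0.2, close to the 41.2% of all genes. Their median was 0.03 after quantile normalization. The 51 odorant binding proteins had medians of 0.04, -0.08 and 0.03, the 29 pickpocket channels 0.0054, -0.07 and -0.03, and the 27 Jonah and trypsin-like digestive proteases 0.02, -0.04 and 0.06.

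Of the non-coding genes, the 306 snoRNA and snRNA genes had medians of 0.07, -0.06 and -0.17. The 294 tRNA genes had 0.02, -0.03 and -0.05, the 260 microRNA genes 0.0063, -0.05 and -0.0046, and the 1942 long non-coding RNA genes -0.0057, -0.03 and -0.0014. The 503 genes named as antisense RNAs had 0.05, -0.05 and 0.21, and the last was -0.0079 after quantile normalization. All 503 overlap another gene, whose fragments they share. Most of the small RNA genes lie inside or beside other genes (280 of the 306 snoRNA and snRNA genes and 212 of the 260 microRNA genes), and their median number of fragments was 1. Of 111 histone genes, which lie in repeats, only 12 were not at 0 throughout, and they are not described further. Among the tRNA genes, tRNA:Ile-AAT-1-8 (chromosome 2R, 13437866 to 13437939) had the highest mean of pairs 1 and 2, with 2.80, 1.72 and 1.61 in paired and 1.25, 1.66 and 1.82 in unpaired flies. As copies of a tRNA gene are near-identical, reads of such fragments may be assigned to another copy.

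The classes were also compared by chromosome. The 114 genes of the small, largely heterochromatic chromosome 4 had a median signal of -0.17, -0.14 and -0.40 in paired and -0.20, -0.07 and 0.03 in unpaired replicates 1, 2 and 3. Replicate 3 again held both ends, with the other 4 profiles in between and close to the naïve median of -0.14. The difference had a median of 0.01 in pair 1, -0.07 in pair 2 and -0.46 in pair 3. There 92 genes (80.7%) lay below -0.2 and 3 (2.63%) above 0.2, against 17.9% and 41.2% of all genes. The median was still -0.45 after quantile normalization. The 2646 genes of the X chromosome had the highest pair 3 median of the arms, at 0.24 (0.05 after quantile normalization). Of these genes 52.6% lay above 0.2, against 41.2% of all genes. In pairs 1 and 2 the X chromosome had medians of 0.02 and -0.04, close to those of all genes. The medians of pair 3 were 0.02, 0.12, 0.05 and 0.10 on the arms 2L, 2R, 3L and 3R.

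**Figure D5:**
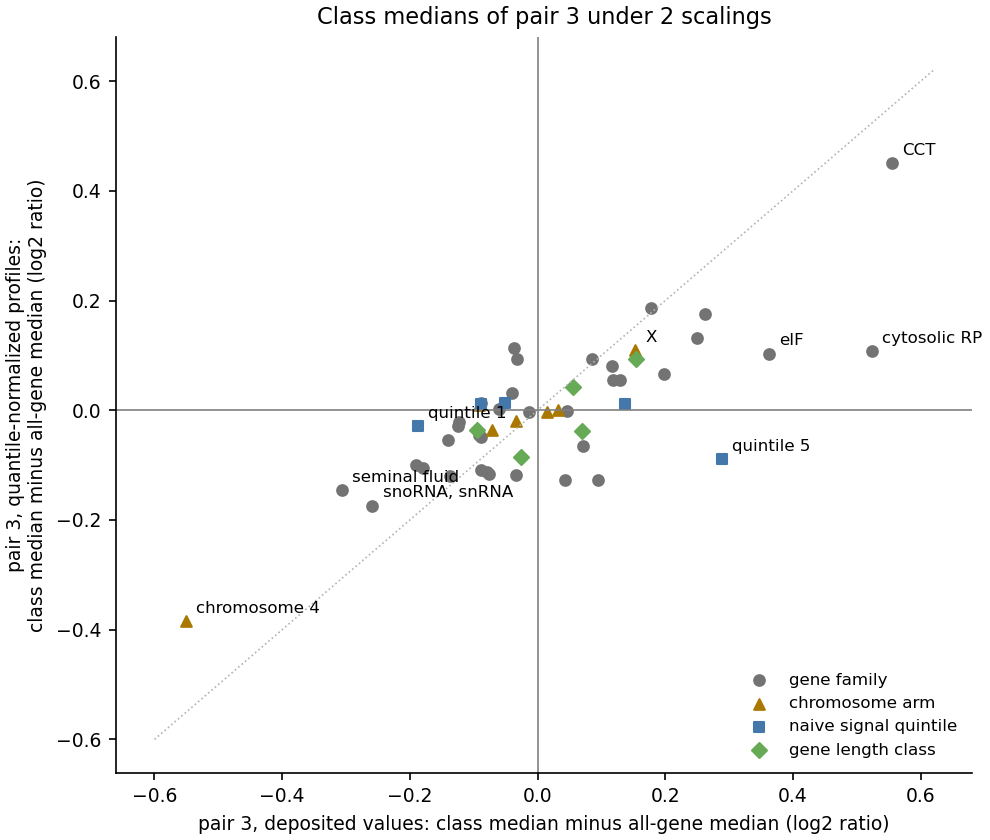
Class medians of the pair 3 difference (log2 ratio) relative to the all-gene median, for the deposited values (horizontal) and for quantile-normalized profiles (vertical), with the dotted line marking equal values. Families, chromosome arms, naïve quintiles and length classes are marked by different symbols. The naïve quintiles collapse towards 0 on the vertical axis, whereas chromosome 4 and the CCT chaperonin remain far from 0.

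Of the 35 families, 26 lay on the same side of the all-gene median in pair 3 with the deposited values and with quantile-normalized profiles.

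Finally, genes were sorted by the mean length of their GATC fragments, since pairs 1 and 2 ran in opposite directions. In pair 1 the medians went from 0.07 in the quintile with the shortest fragments to -0.02 in that with the longest, and in pair 2 from -0.08 to -0.01. In pair 3 both ends were lower (0.12 and 0.0082) than the quintile next to the shortest (0.18). Fragment length differed between families, with a median of 176 bp in CCT genes, 233 bp in the Enhancer of split complex and 669 bp in the dpr, DIP, beat and side genes. The part of fragment length in the family medians was not tested.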

How the data were processed

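The authors mapped the reads of Dam-CrebB and Dam-only samples to release 6 with a DamID pipeline, normalized the libraries and deposited a log2 ratio of both per replicate. The ratios cover 383654 GATC fragments (median 197.0 bp). The read depth behind a ratio is unknown, and the precision is limited by 3 replicates per group. The labels do not say how the replicates were raised, and the study's methods call them biological. Gene values used a RefSeq table of release 6 without strand. The deposited gene lists of the authors, with their own ratios and FDR values, and the TI-1 profiles were not used here.

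Unpaired values were subtracted within replicate number, and the 3 differences were tested against 0 by limma 3.58.1 under R 4.3.3 (moderated fit, two-sided, adjustment after Benjamini and Hochberg). Thresholds were an adjusted p under 0.01 and a difference of 0.2. Classes were summarised with Python 3.11.15, numpy 2.4.6 and pandas 2.3.3, and plots drawn with matplotlib 3.10.9. Both steps were tested on simulated data. For limma the simulated pairs had equal spread and large changes, unlike the pairs here, so its power for these data was not tested. Quintiles came from the mean of the naïve profiles, and family lists from gene symbols. Members, families and classes were chosen with earlier results of these data known, and the classes by chromosome and fragment length were added after the values had been seen. In each of 15 main families, the genes with the highest and the lowest mean of pairs 1 and 2 could be named, with at least 5 fragments except for tRNA and CCT genes, together with CrebB and the markers. CCT3, CCT4, Dop1R1, Dop1R2, Oamb, rut and dnc were chosen after their values were seen. Alternatives were another gene value, centring, quantile normalization, filters on fragments, overlap and chromosomes, other quintiles, each replicate left out and no replicate block. Promoter sequences and windows at gene starts were not analysed here.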

Additional observations from a re-analysis of the deposited data

How the results depend on the processing

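In pair 3, the median of the highest minus that of the lowest naïve quintile was 0.48 and lay between 0.44 and 0.51 under the other alternatives, but was -0.060 with quantile normalization. Genes over 30 kb minus genes under 1 kb had 0.07 in pair 3, which was -0.048 with quantile normalization, -0.036 with means in place of medians and 0.16 with length quintiles. For the mean of pairs 1 and 2 the quintile contrast was -0.0020 and moved to 0.024 with unweighted means, -0.016 with quantile normalization and -0.016 with quintiles from naïve replicate 2 alone. Leaving out replicate 1 or 2 gave -0.0091 to 0.00996 for the quintiles and -0.03 to 0.0019 for length. For the 15 main families, 187 of 238 medians under 8 alternatives moved by less than the SD of the pairs, which for pair 3 is taken over all 3 pairs and so includes pair 3 itself. For the mean of pairs 1 and 2 it is the SD of these 2 pairs, which can exceed the median (cytochrome P450 enzymes, 0.0087 with SD 0.12). A change of sign could thus count as less, as in the cAMP genes (-0.029 to 0.0019 with unweighted means). The count is therefore a weak measure of stability. With quantile normalization, 13 of the 15 pair 3 medians moved by more than the SD of the 3 pairs. The causes were not tested.

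limma called 0 genes in each direction under all alternatives run, including each replicate left out. Without the replicate block the counts were 0 and 0, with 67 higher and 37 lower of 17463 genes at an unadjusted limma p under 0.05. The smallest adjusted p was then 0.84. Deviations of samples with the same number correlated at -0.12, -0.09 and -0.25, so the samples may share only a number. The window at gene starts and the promoter motif were not run, as they need strand and sequence.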
